A study of Mus musculus with 17 samples.

Results

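Macrophages and other myeloid cells of the mouse kidney were followed through 10 marker genes, Adgre1, Cd68, Csf1r, Itgam, Itgax, Lyz2, Mrc1, Cd163, Tyrobp and Ptprc, which are 10 of the 22561 genes of the deposited table and were chosen by symbol as markers of resident and recruited macrophages. RNA of whole kidney was sequenced from 17 male mice that were 8 weeks old at the start, with 1 library per mouse. Control mice (Ctrl, n = 5) were C57BL/6 mice given saline, diabetic mice (Case, n = 6) were db/db mice (BKS.Cg-Dock7m +/+ Leprdb/J), which lack a working leptin receptor, given saline, and treated mice (Dapa, n = 6) were db/db mice given dapagliflozin, which blocks renal glucose reuptake through SGLT2, by gavage at 1 mg/kg/day. All groups were treated for 6 weeks. The libraries held 13039535 to 17779635 counts, and mitochondrial genes took 17.9% to 27.6% of them. The db/db allele, the strain background and obesity differ together between Ctrl and Case and cannot be told apart. Mice are named by their group and the number in their label, so that Case 3 is the diabetic mouse numbered 3.

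The kidney holds a network of resident macrophages in its interstitium, kept alive by signalling through the CSF1 receptor and recognised in mice by the surface protein F4/80. Circulating monocytes and neutrophils, which carry more of the integrin CD11b and of lysozyme, enter the tissue after injury. Because whole tissue was sequenced, fewer cells of a type and less RNA per cell cannot be told apart in any of the levels below.

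No marker passed edgeR's quasi-likelihood test in any comparison when all mice were used and only the group was fitted. DESeq2 called Itgam between Case and Ctrl and Ptprc between Dapa and Ctrl. Between Dapa and Ctrl, limma's voom with sample weights also called Ptprc, and edgeR with a term for 7 libraries, described below, called Ptprc and Itgax. A single diabetic mouse stood far above the other 16. Case 3 had the highest level of all 17 mice for 8 of the 9 markers that passed the filter on low counts, and also for Cd163, which did not pass it. Its summed level of the 10 markers was 138 FPKM (fragments per kilobase of transcript, scaled to the size of the library), 7.75 times the median of the other Case mice, whose sums were 37.1, 35.3, 16.9, 15.8 and 17.8 FPKM. The Ctrl mice summed to 24.5, 25, 17.4, 28.4 and 23.6 FPKM, and the Dapa mice to between 12.9 and 38.1 FPKM with a median of 26.4 FPKM. Apart from Case 3, the sums of the 3 groups overlapped, and those of Case and Dapa reached both above and below the Ctrl mice.

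The transcription factor PU.1 drives many myeloid genes and binds purine-rich sites around the letters GAGGAA. Sequences just upstream of 4 markers are shown because this motif was searched for in genes that were highest in the same mouse. They were taken from RefSeq (GRCm38.p6) and hold no base of the gene as annotated by GENCODE, each on its gene's own strand, 5′ to 3′, with GAGGAA or its reverse complement TTCCTC in capitals. The windows were chr7:128062390-128062639 on the plus strand for Itgam, chr11:69666171-69666420 on the minus strand for Cd68, chr2:14229164-14229391 on the plus strand for Mrc1 and chr10:117282322-117282522 on the minus strand for Lyz2.
Itgam: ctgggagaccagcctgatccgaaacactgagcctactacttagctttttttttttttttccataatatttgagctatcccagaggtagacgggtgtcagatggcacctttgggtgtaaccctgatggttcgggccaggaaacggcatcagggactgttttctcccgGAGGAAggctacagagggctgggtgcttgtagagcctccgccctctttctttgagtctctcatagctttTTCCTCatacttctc
Cd68: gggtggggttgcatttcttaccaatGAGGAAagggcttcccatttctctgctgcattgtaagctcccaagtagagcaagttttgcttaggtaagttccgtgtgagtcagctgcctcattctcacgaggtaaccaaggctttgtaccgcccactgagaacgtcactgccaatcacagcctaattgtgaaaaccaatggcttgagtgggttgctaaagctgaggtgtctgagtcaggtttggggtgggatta
Mrc1: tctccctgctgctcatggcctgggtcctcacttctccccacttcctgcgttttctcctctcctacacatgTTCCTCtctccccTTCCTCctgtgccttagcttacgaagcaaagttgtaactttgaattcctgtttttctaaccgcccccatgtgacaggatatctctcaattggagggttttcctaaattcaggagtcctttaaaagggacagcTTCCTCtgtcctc
Lyz2: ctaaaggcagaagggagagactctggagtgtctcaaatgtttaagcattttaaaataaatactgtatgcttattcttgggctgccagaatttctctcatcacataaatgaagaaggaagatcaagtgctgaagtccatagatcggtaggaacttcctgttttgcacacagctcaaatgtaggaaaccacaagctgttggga
In Itgam the matches began 84 and 15 bases before the RefSeq start, in Cd68 the match began 225 bases before it, and in Mrc1 the 3 matches began between 180 and 35 bases before it. The printed Lyz2 window held no match.

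GAGGAA on either strand was found in the 250 bases before a RefSeq start of 4 of the 7 markers examined (Cd68, Itgam, Mrc1 and Ptprc). Of 32851 such windows of all genes 23.3% held it. That share is per window, whereas a marker was counted if any of its windows held the motif, so the values are not alike. The windows of Ptprc lay mostly inside the gene as annotated by GENCODE, so its match is not shown to lie upstream of the gene. Adgre1 and Tyrobp had no entry, and Csf1r on chromosome 18 was not examined. A match describes letters in a window and was not tested for binding.

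**Figure D1:**
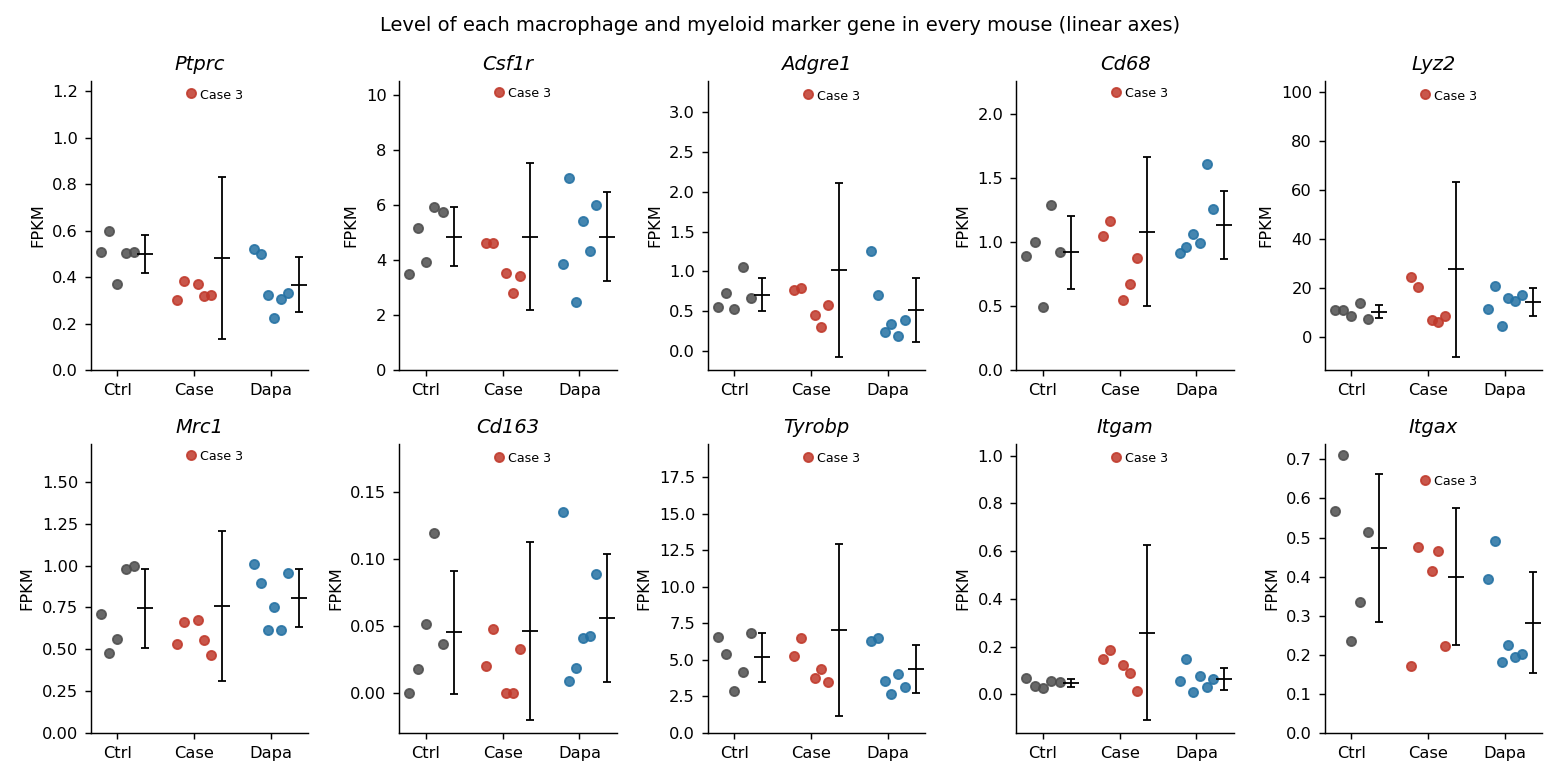
Level of each of the 10 marker genes in every mouse, in FPKM on linear axes, 1 panel per gene, with points for mice and black bars for the group mean ± SD. The point for Case 3 is the highest in every panel but that of Itgax, and without it the points of the 3 groups overlap in all panels.

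Ptprc (chr1:138062861-138175708, positions of genes here and below in GRCm38 from GENCODE vM21) encodes CD45, a phosphatase on the surface of all white blood cells, and so marks leukocytes rather than macrophages. Its level was 0.507, 0.599, 0.371, 0.505 and 0.509 FPKM in the Ctrl mice, and 0.302, 0.384, 1.19, 0.369, 0.318 and 0.323 FPKM in the Case mice. In the Dapa mice it lay between 0.225 and 0.521 FPKM with a median of 0.328 FPKM. Case 3 stood above all other mice, while 4 of the other 5 Case mice stood below every Ctrl mouse. With all mice Ptprc did not pass the test between Case and Ctrl (log2 fold change -0.15 ± 0.32 (SE), Benjamini-Hochberg adjusted p = 0.796 in edgeR's quasi-likelihood test). Without Case 3 it was lower in Case (-0.63 ± 0.14, adjusted p = 0.0147 by the same test), 1.54-fold, the only marker whose call this changed. Of all genes, 13.0% were called in that comparison with all mice and 11.8% without Case 3.

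Csf1r is the receptor for the growth factors CSF1 and IL-34, on which tissue macrophages depend for survival. Its level was 3.51, 5.15, 3.93, 5.91 and 5.73 FPKM in the Ctrl mice and 4.6, 4.63, 10.1, 3.52, 2.82 and 3.43 FPKM in the Case mice. The Dapa mice had 2.46 to 6.98 FPKM with a median of 4.89 FPKM. Group means were 4.85 FPKM in all 3 groups, with SDs of 1.08, 2.66 and 1.62 FPKM in Ctrl, Case and Dapa, and the Case mean without Case 3 was 3.8 ± 0.791 FPKM (SD, n = 5). Of the 8 genes tested from its axis, which holds Csf1r, the genes of both ligands and the receptors for related growth factors, 0 passed in any comparison. Of all genes, 13.0% were called between Case and Ctrl, 0% between Dapa and Case and 29.1% between Dapa and Ctrl.

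Adgre1 (chr17:57358691-57483527) encodes F4/80, the classical surface marker of mouse tissue macrophages. Ctrl mice had 0.546, 0.726, 0.528, 1.05 and 0.668 FPKM, and Case mice had 0.759, 0.791, 3.23, 0.453, 0.299 and 0.576 FPKM. Dapa mice ranged from 0.184 to 1.25 FPKM with a median of 0.357 FPKM, and 4 of the 6 lay below every Ctrl mouse. Dapa 7, at 1.25 FPKM, was above all Ctrl mice. The log2 fold change between Dapa and Ctrl was -0.55 ± 0.44 (adjusted p = 0.368, edgeR's quasi-likelihood test), and without Dapa 7 it was -1.02 ± 0.35 (adjusted p = 0.0434).

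Mrc1 (CD206, the mannose receptor, chr2:14229392-14332057) and Cd163 (chr6:124304656-124330527, the receptor for haemoglobin bound to haptoglobin) are scavenger receptors of resident and alternatively activated macrophages. Mrc1 was at 0.712, 0.475, 0.56, 0.978 and 0.997 FPKM in Ctrl, and at 0.529, 0.66, 1.66, 0.676, 0.554 and 0.468 FPKM in Case. In Dapa it was at 0.612 to 1.01 FPKM with a median of 0.821 FPKM. The Case mice other than Case 3 were close together, at 0.578 ± 0.0887 FPKM (SD, n = 5), and within the range of Ctrl but for Case 6. Between Dapa and Case the log2 fold change of Mrc1 was 0.09 ± 0.28 (adjusted p = 0.916), and 0.45 ± 0.18 (adjusted p = 0.288, both by edgeR's quasi-likelihood test) without Case 3. Cd163 had 0 to 20 counts in a mouse, with 20 in Case 3 and 14 in the highest mouse of Ctrl and of Dapa, and it did not pass the filter in any comparison. Without a filter its log2 fold change between Case and Ctrl was -0.06 ± 0.99 (adjusted p = 0.978, edgeR's quasi-likelihood test). At these counts a difference in Cd163 was not detectable.

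Cd68 (chr11:69664213-69666153) encodes a lysosomal membrane protein of phagocytes, and is present in resident and recruited cells alike. Ctrl mice had 0.894, 1, 0.49, 1.29 and 0.921 FPKM, and Case mice 1.05, 1.16, 2.17, 0.548, 0.675 and 0.871 FPKM. Dapa mice had 0.911 to 1.61 FPKM with a median of 1.02 FPKM, so that the 3 groups overlapped throughout. Its log2 fold changes were 0.14 ± 0.34 between Case and Ctrl, 0.06 ± 0.30 between Dapa and Case and 0.19 ± 0.26 between Dapa and Ctrl, with adjusted p between 0.609 and 0.952 in edgeR's quasi-likelihood test. After Itgax, it was the marker on which Case 3 stood out least, at 2.49 times the median of the other Case mice.

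Lyz2 (chr10:117277331-117282321) encodes lysozyme M of macrophages, monocytes and neutrophils, and was by far the most abundant of the markers in FPKM. Ctrl mice had 11.1, 10.8, 8.38, 13.9 and 7.32 FPKM, Case mice 24.3, 20.5, 99.3, 7.01, 6.16 and 8.4 FPKM, and Dapa mice 4.46 to 20.9 FPKM with a median of 15.3 FPKM. The Case mice fell on both sides of Ctrl, with Case 1, Case 2 and Case 3 above every Ctrl mouse and Case 4 and Case 5 below every one. Case 3 had 11.8 times the median of the other Case mice, the largest such ratio among the 10 markers. The log2 fold change between Case and Ctrl was 1.30 ± 0.63 (adjusted p = 0.195), and 0.28 ± 0.36 (adjusted p = 0.663, edgeR's quasi-likelihood test) without Case 3. Lyz2 shares 15.4% of its 50-base stretches with its neighbour Lyz1, which had 0 to 11 counts in a mouse and 4 in Case 3, against 2051 counts of Lyz2 there.

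Tyrobp (chr7:30413760-30417585) encodes DAP12, the adaptor through which TREM2 and other receptors of myeloid and natural killer cells signal. Its level was 6.55, 5.4, 2.85, 4.2 and 6.86 FPKM in Ctrl, 5.23, 6.47, 18.9, 3.79, 4.39 and 3.49 FPKM in Case, and 2.63 to 6.5 FPKM with a median of 3.79 FPKM in Dapa. All mice but Case 3 lay between 2.63 and 6.86 FPKM. The log2 fold change between Dapa and Case was -0.68 ± 0.40 (adjusted p = 0.477, edgeR's quasi-likelihood test), and -0.13 ± 0.28 without Case 3.

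Itgam encodes CD11b, the integrin chain carried at high level by monocytes, neutrophils and recruited macrophages. The table held 2 entries under this symbol on the same strand of chromosome 7, ENSMUSG00000030786 at chr7:128062640-128118491 and ENSMUSG00000108596 at chr7:128062683-128128160 (GRCm38). They overlap over 55809 bases, 99.9% of the former, and 72.4% of the 50-base stretches of the former's longest transcript are also in the latter's, so that counts of one cannot be kept apart from the other. The former, used here, had 2 to 20 counts in every Case mouse but Case 3, which had 117.

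In FPKM, Itgam was at 0.0684, 0.0338, 0.0248, 0.0575 and 0.0528 in the Ctrl mice, at 0.146, 0.184, 0.995, 0.122, 0.088 and 0.0156 in the Case mice, and at 0.0089 to 0.147 with a median of 0.0599 in the Dapa mice. Thus 5 of the 6 Case mice lay above every Ctrl mouse and Case 6 lay below them all. The log2 fold change between Case and Ctrl was 2.30 ± 0.80, with an unadjusted p of 0.0136, the smallest of the markers in that comparison, and an adjusted p of 0.0781 in edgeR's quasi-likelihood test. With DESeq2 the adjusted p was 0.0201, and without Case 6 it was 0.0363. With the 2 entries summed, an alternative chosen after seeing the data, the log2 fold change was 1.05 ± 0.54 (adjusted p = 0.217, edgeR's quasi-likelihood test). With all mice Itgam passed the filter in this comparison alone, and it did not pass when any 1 of Case 1 to Case 5 was left out, so that it was tested only through its counts in the Case mice.

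Itgax (chr7:128129547-128150657) encodes CD11c, an integrin chain of dendritic cells and of some kidney macrophages. Its level was 0.569, 0.712, 0.236, 0.335 and 0.514 FPKM in Ctrl, 0.172, 0.476, 0.647, 0.415, 0.466 and 0.223 FPKM in Case, and 0.181 to 0.492 FPKM with a median of 0.214 FPKM in Dapa. It was the marker on which Case 3 stood out least, at 1.56 times the median of the other Case mice, and Ctrl 2 was the highest mouse. Case 3 was the highest Case mouse. Of its 50-base stretches 9.61% are shared with Itgad.

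The comparison of Case with Ctrl asked whether macrophage markers were raised in the diabetic kidney. Of the 9 markers tested, 0 passed at an adjusted p under 0.05 in edgeR's quasi-likelihood test, against 13.0% of 14582 genes, and 1 (Itgam) had an unadjusted p under 0.05. DESeq2 called Itgam higher in Case (adjusted p = 0.0201). As given above, Itgam was tested only through its counts in the Case mice, and edgeR did not call it with both entries under its symbol summed. Its values are therefore no support for a rise of the markers. By the stricter rule of the study, which also asks for a fold above 2, 0 passed as well. No marker had Case and Ctrl mice that did not overlap, against 8.43% of all genes. Over the 8 markers tested in every comparison the median log2 fold change was 0.04, with 4 above 0 and 4 below, against 0.03 for all genes. Without Case 3 the median was -0.39, with Lyz2 as the 1 marker above 0 and 7 below, against 0.01 for all genes. In that setting Ptprc was called lower, the 1 call among 8 markers, against 11.8% of all genes. The fitted values of Csf1r, -0.42 ± 0.16 (adjusted p = 0.12), and of Mrc1, -0.44 ± 0.22 (adjusted p = 0.214, both by edgeR's quasi-likelihood test), did not pass.

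**Figure D2:**
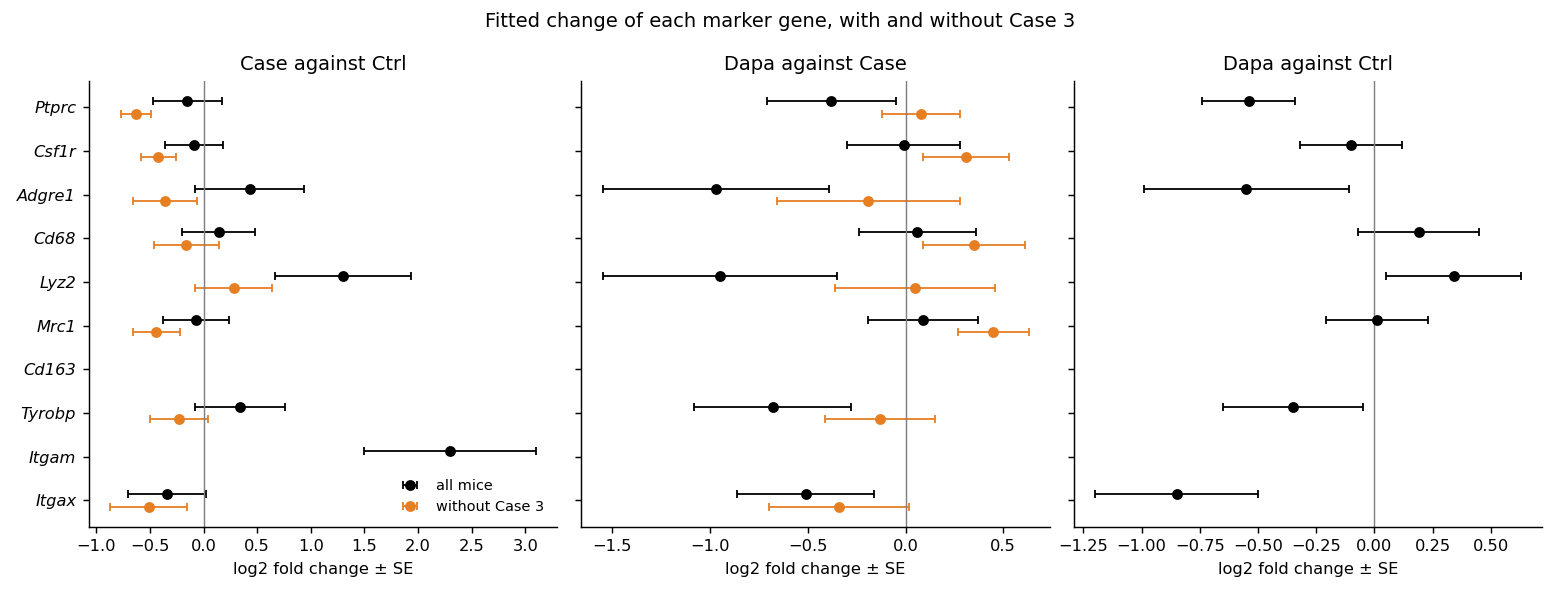
Fitted log2 fold change of each marker gene with its standard error (horizontal bars), in the 3 comparisons, with all mice and without Case 3. Leaving out Case 3 moved the fitted changes between Case and Ctrl down, with a median going from 0.04 to -0.39, and those between Dapa and Case up, with a median going from -0.45 to 0.07.

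The comparison of Dapa with Case asked whether the drug moved these markers in diabetic mice. Of the 8 markers tested, 0 passed, and 0% of the 14573 genes did in edgeR's quasi-likelihood test, where 1880 genes and 0 of the 8 markers had an unadjusted p under 0.05. DESeq2 called 208 genes, none of them a marker, a fit of all 3 groups called 5 genes, and limma called 0. Dapa and Case did not overlap in 0.480% of genes and in no marker. The median of the 8 log2 fold changes was -0.45, with 6 below 0 and 2 above, and it was 0.07 without Case 3, with 3 below 0 and 5 above. Again 0% of 14643 genes were called in that setting. Adgre1 went from -0.97 ± 0.58 to -0.19 ± 0.47, Lyz2 from -0.95 ± 0.60 to 0.05 ± 0.41, Ptprc from -0.38 ± 0.33 to 0.08 ± 0.20, and Csf1r from -0.01 ± 0.29 to 0.31 ± 0.22. Without Case 3 the fitted changes of Adgre1, Lyz2, Tyrobp and Ptprc were smaller than their SEs.

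Between Dapa and Ctrl, the comparison that does not use Case 3, 0 of the 8 markers tested passed edgeR's quasi-likelihood test, against 29.1% of 14647 genes. Of these 8, 2 markers, both lower in Dapa, had an unadjusted p under 0.05. Ptprc differed by -0.54 ± 0.20 on the log2 scale (adjusted p = 0.0608) and Itgax by -0.85 ± 0.35 (adjusted p = 0.0871, both by edgeR's quasi-likelihood test). Ptprc passed with DESeq2 (adjusted p = 0.0438) and with limma's voom with sample weights (adjusted p = 0.0195), and without Dapa 7 or Dapa 8. Itgax passed without Dapa 8 (adjusted p = 0.0375). With a term for the 7 libraries whose deposited FPKM departed from the usual scaling in a few genes, both passed (adjusted p = 0.0152 for Ptprc and 0.0374 for Itgax, edgeR's quasi-likelihood test). The median of the 8 log2 fold changes was -0.23, with 3 above 0 and 5 below, against 0.02 for all genes. Dapa and Ctrl did not overlap in 14.5% of genes and in no marker. Comparisons of Case with Ctrl and of Dapa with Ctrl share the Ctrl mice, so that they are not independent.

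Levels in FPKM fell into tiers in the control kidney. Lyz2 was highest at 10.3 ± 2.58 FPKM (SD, n = 5), followed by Tyrobp at 5.17 ± 1.67 FPKM and Csf1r at 4.85 ± 1.08 FPKM, which did not differ beyond their spread. Then came Cd68 at 0.919 ± 0.286 FPKM, Mrc1 at 0.744 ± 0.238 FPKM and Adgre1 at 0.703 ± 0.21 FPKM, whose SDs overlapped, and Ptprc at 0.498 ± 0.0815 FPKM with Itgax at 0.473 ± 0.19 FPKM. The place of Ptprc does not follow its counts per length of transcript. It had 1101 counts over the Ctrl mice and a longest transcript of 5740 bases, against 454 counts and 5374 bases for Mrc1. Itgam at 0.0475 ± 0.0178 FPKM and Cd163 at 0.0449 ± 0.0458 FPKM were lowest and rested on few counts. Lyz2 took 31% to 49.1% of the summed level in Ctrl mice and 71.8% in Case 3. Without Lyz2 the sum in Case 3 was 39.1 FPKM, 3.95 times the median of the other Case mice.

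To read the markers against leukocyte RNA rather than against all RNA of the kidney, each was divided by Ptprc in the same mouse. Lyz2 per Ptprc was 14.4 to 27.6 in Ctrl mice, 80.2, 53.4, 83.3, 19, 19.4 and 26 in Case 1 to Case 6, and 13.8 to 70.8 with a median of 44.6 in Dapa mice. By this ratio Case 3 was close to Case 1, and Case 1, Case 2 and Case 3 lay above every Ctrl mouse as did 4 of the 6 Dapa mice. Csf1r per Ptprc was lower in Case 3, at 8.46, than in any other Case mouse, where it reached 15.2, and was 6.92 to 11.7 in Ctrl and 7.41 to 24.1 in Dapa. Thus Csf1r did not stand out in Case 3 once set against Ptprc. Cd68 per Ptprc was 1.32 to 2.55 in Ctrl, 1.49 to 3.48 in Case and 1.75 to 5.24 in Dapa. The median of Lyz2 in Case over that in Ctrl was 1.81 relative to Ptprc, 1.4 relative to Tyrobp and 1.84 relative to Laptm5, a lysosomal protein of leukocytes. It rested on which Case mice were used, since the ratio relative to Ptprc was 1.19 with any 1 of Case 1, Case 2 and Case 3 left out and 2.44 with any 1 of the others left out, alternatives chosen after seeing the data. The same ratio for Adgre1 was 1.47 relative to Ptprc but 0.996 relative to Tyrobp and 1.01 relative to Laptm5. A ratio within a library shows unequal levels and not which gene changed.

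**Figure D3:**
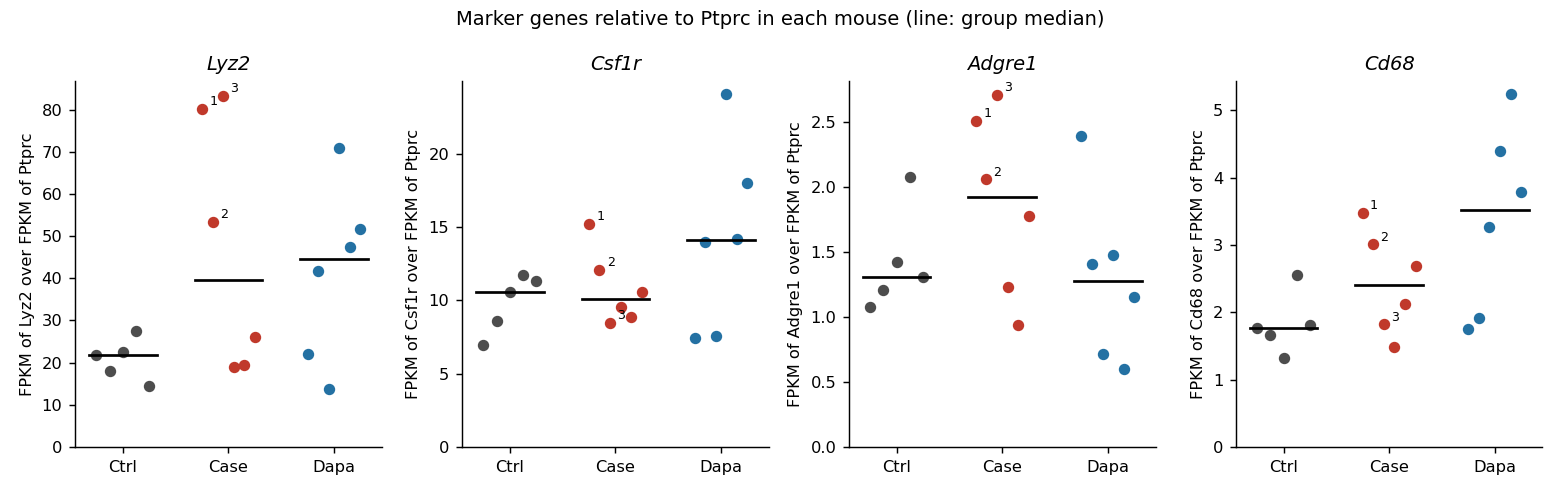
Level of Lyz2, Csf1r, Cd68 and Adgre1 divided by that of Ptprc (both in FPKM) in every mouse, 1 panel per gene, with points for mice and lines for group medians. Lyz2 per Ptprc reached 80.2 and 83.3 in Case 1 and Case 3 against at most 27.6 in Ctrl, whereas Csf1r per Ptprc was lowest among the Case mice in Case 3.

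Case 3 was the highest mouse for 2075 of 15060 genes, 13.8%, more than any other mouse, and for 8 of the 9 markers among those genes. Its levels over the median of the other Case mice were 11.8-fold for Lyz2, 8.73-fold for Cd163, 8.14-fold for Itgam, 5.6-fold for Adgre1, 4.31-fold for Tyrobp, 3.69-fold for Ptprc, 2.99-fold for Mrc1, 2.86-fold for Csf1r, 2.49-fold for Cd68 and 1.56-fold for Itgax. Its counts of Lyz2, Csf1r, Ptprc and Adgre1 were 2051, 964, 524 and 190, so that counting error was small beside the ratios of these 4 genes. The ratios of Cd163, with 20 counts in Case 3 and 0 to 5 in the other Case mice, and of Itgam, with 117 counts against 2 to 20, rest on few counts in the other mice.

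Other macrophage genes stood out in Case 3 as well. Of 26 such genes that passed the filter, 19 were highest in Case 3, at a median of 3.5 times the other Case mice. They included the complement genes C1qa at 31 against a median of 7.56 FPKM, C1qb at 32.9 against 8.91 FPKM and C1qc at 13.3 against 2.84 FPKM, the cathepsin gene Ctss at 34.1 against 6.74 FPKM, and Aif1, which encodes IBA1, at 1.84 against 0.281 FPKM. Not all did so. Mertk, an engulfment receptor, was at 12.4 against 13.8 FPKM, and Folr2, a marker of resident macrophages, at 1.76 against 1.75 FPKM. Vsig4, a complement receptor of resident macrophages, did not pass the filter. It had 5 counts over all 17 mice and 0 in Case 3, too few to show a difference.

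Among genes of recruited monocytes, 7 of 10 were highest in Case 3, among them Ccr2, the receptor that draws monocytes out of the blood, at 0.878 against 0.215 FPKM, and Fcgr4, an activating Fc receptor, at 8.64 against 1.27 FPKM. Ly6c2, which marks classical monocytes, was at 0.183 against 0.122 FPKM and was not highest there. For the growth factor axis 8 of 8 were highest in Case 3, including Csf1 at 3.25 against 1.43 FPKM and Il34 at 4.53 against 1.05 FPKM. For the partners of DAP12 and the Fc receptor gamma chain 9 of 10 were, including Trem2 at 0.321 against 0.0184 FPKM and Fcer1g at 6.8 against 1.54 FPKM. These lists share genes, so that their counts are not separate. The axis holds the marker Csf1r, and of the partners Trem2, Fcer1g, Fcgr1 and Fcgr3 are also other macrophage genes and Fcgr4 a monocyte gene.

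Markers of other cells moved in Case 3 too, and their part in the levels above was not tested. The summed level of 9 neutrophil markers was 20.3 FPKM in Case 3 and 14.5 FPKM in Case 1, against 0.708 to 2.92 FPKM in the other Case mice and 0.0933 to 2.42 FPKM in Ctrl. In Case 3, S100a9 was at 10.4, Ltf at 3.11, Retnlg at 3.03, S100a8 at 2.87 and Cxcr2 at 0.384 FPKM, each the highest of the 17 mice. Mmp8, Ngp, Ly6g and Mpo were not highest there, with 12, 2, 2 and 0 counts. Only S100a9 and Ltf passed the filter on low counts. T and natural killer cell markers summed to 5.96 FPKM in Case 3, against 1.03 to 2.55 FPKM in the other Case mice and 2.56 to 4.94 FPKM in Dapa. The 6 erythroid genes summed to 449 FPKM in Case 3, against 65.7 to 202 FPKM in the other Case mice and 118 to 371 FPKM in Dapa. The 10 proximal tubule markers summed to 2256 FPKM in Case 3, the lowest of all 17 mice, against 3065 to 4396 FPKM in the other Case mice, 4192 to 4512 FPKM in Ctrl and 2571 FPKM in Dapa 12, the next lowest. The distal nephron markers summed to 3117 FPKM in Case 3, the highest of all 17 mice, with Umod at 2221 FPKM, though their median ratio was 1.05. Tubular injury genes had a median ratio of 2.73, with 3 of 10 highest in Case 3. Endothelial markers were highest in Case 3 in 0 of 8 genes, with a median ratio of 1.25. Dapa 8 had 9.08 FPKM of the neutrophil markers, against 0.683 to 2.52 FPKM in the other Dapa mice, and also the highest sum of the 10 myeloid markers in its group.

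**Figure D4:**
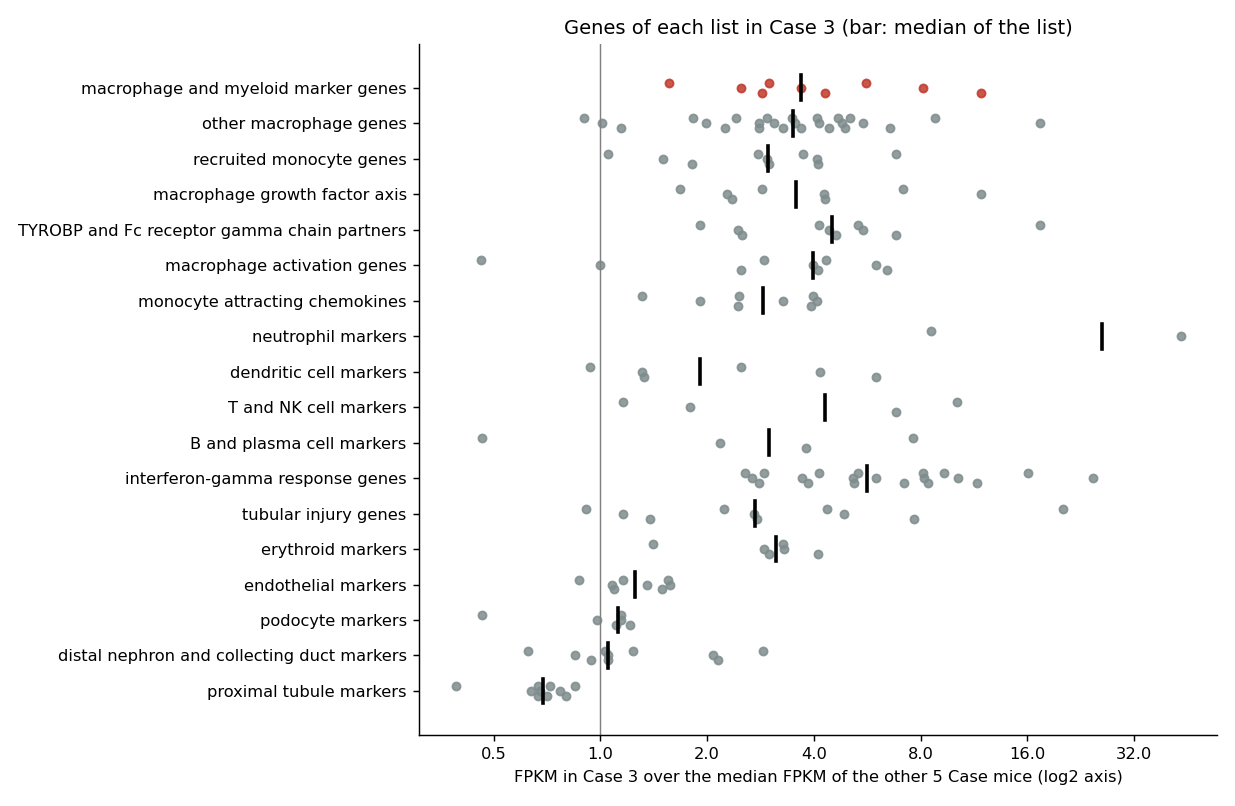
Level in Case 3 divided by the median of the other 5 Case mice, on a log axis, for every gene of each list that passed the filter, with points for genes and vertical bars for list medians. The 9 marker genes and the other macrophage genes centre at 3.69 and 3.5, while the endothelial and proximal tubule genes centre at 1.25 and 0.692.

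Interferon-gamma response genes, which include those for antigen presentation, were set beside the markers because activated macrophages respond to this cytokine. Their summed level was 103 to 138 FPKM in Ctrl, 906, 332, 1165, 105, 514 and 72.2 FPKM in Case 1 to Case 6, and 88.5 to 231 FPKM in Dapa. Of 19 tested, 15 were higher in Case than in Ctrl with all mice and 10 without Case 3, against 13.0% and 11.8% of all genes called, with median log2 fold changes of 2.51 and 2.14 against 0.03 and 0.01 for all genes. Between Dapa and Case 0 of 18 passed, as did 0% of all genes, while 17 of the 18 fitted values lay below 0, with a median of -2.43 with all mice and -1.91 without Case 3. Between Dapa and Ctrl 1 of 19 was higher, against 29.1% of all genes called, with a median of 0.13 against 0.02 for all genes. Case 5 had 514 FPKM of these genes but the lowest sum of macrophage markers in its group, at 15.8 FPKM, and Case 1 had 906 FPKM with a marker sum of 37.1 FPKM, of which Lyz2 made 65.4%. Without Lyz2 the markers of Case 1 summed to 12.8 FPKM, within the 9.05 to 16.3 FPKM of Ctrl. The study drew attention to these genes from the same samples, so that their direction is not independent evidence.

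**Figure D5:**
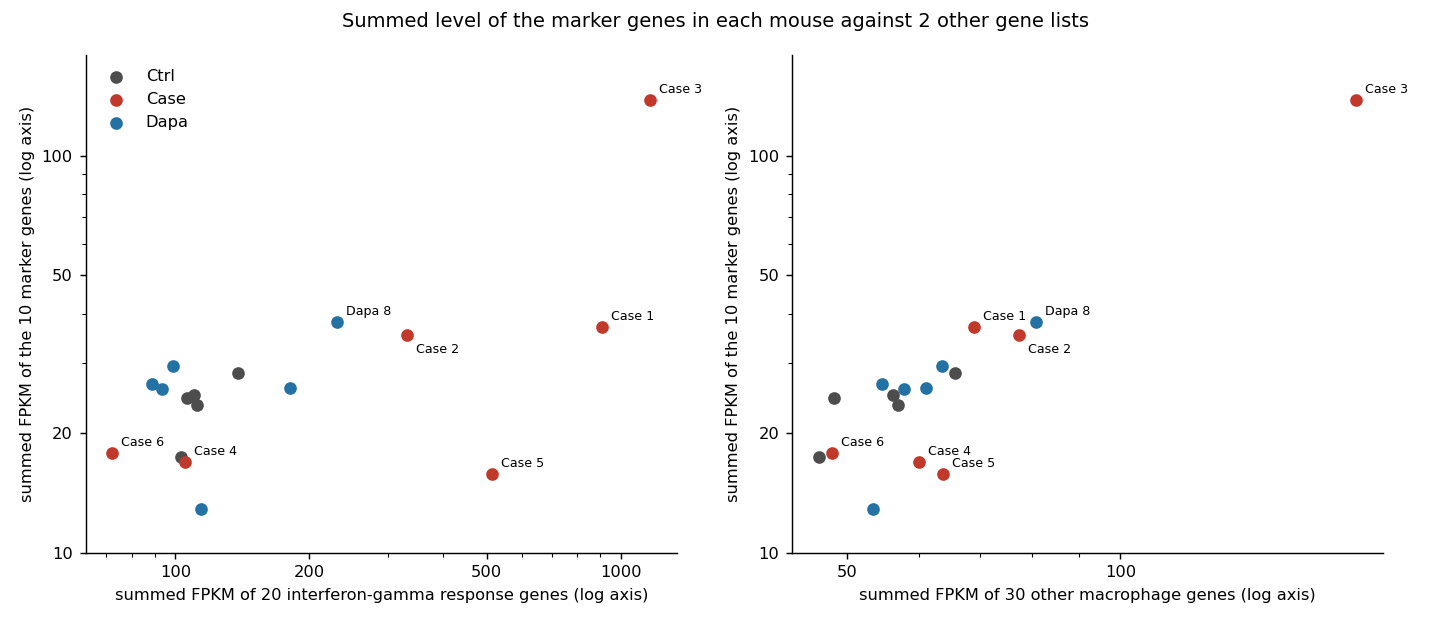
Summed level of the 10 marker genes in each mouse (vertical, FPKM, log axis) against that of 20 interferon-gamma response genes (left) and 30 other macrophage genes (right), both horizontal in FPKM on log axes, with a point for each mouse. Case 3 is alone at the upper right of both panels, while Case 5 has 514 FPKM of response genes at a marker sum of 15.8 FPKM.

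In edgeR's quasi-likelihood test, with all mice and without Case 3, no gene of these lists passed between the treated and the untreated db/db mice. The counts that follow stand against 13.0% of all genes called between Case and Ctrl, 11.8% without Case 3, and 29.1% between Dapa and Ctrl. Of 24 other macrophage genes tested between Case and Ctrl, Cd14, a co-receptor for bacterial lipopolysaccharide, was higher (log2 fold change 1.41 ± 0.38, adjusted p = 0.0284), and it was also higher without Case 3 (1.03 ± 0.29, adjusted p = 0.0412, edgeR's quasi-likelihood test). The list's median was 0.65 with all mice and 0.11 without Case 3, against 0.03 and 0.01 for all genes. Between Dapa and Ctrl 4 of 23 were higher, led by Hpgds (1.14 ± 0.27), and 1, Folr2 (-1.36 ± 0.30), was lower, against 29.1% of all genes, and the list's median was 0.00. Between Dapa and Case the list's median was -0.46, and 0.00 without Case 3.

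The most abundant gene of several lists differed little or uncertainly between Dapa and Case. The log2 fold changes were -0.11 ± 0.08 for Mertk, 0.36 ± 0.29 for Ace, -0.06 ± 0.18 for Plcg2, a phospholipase that acts downstream of SYK, and 0.18 ± 0.35 for Cxcl10, a chemokine induced by interferons. Larger but uncertain values were found for C3 (-1.29 ± 0.59, adjusted p = 0.376) and for Cd74, the invariant chain of antigen presentation (-1.15 ± 0.51, adjusted p = 0.365, edgeR's quasi-likelihood test). The same held for the neutrophil gene S100a9 (-1.24 ± 0.83, adjusted p = 0.533) and the injury gene Spp1 (-0.97 ± 0.39, adjusted p = 0.334, edgeR's quasi-likelihood test).

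Of 8 monocyte genes tested, 1 was lower in Case than in Ctrl, Ace (-2.31 ± 0.19, adjusted p = 6.59e-05, edgeR's quasi-likelihood test), which encodes angiotensin-converting enzyme and is also made by the tubule and by blood vessels. In Dapa against Ctrl Ace was lower again (-1.95 ± 0.32), Fcgr4 was lower (-1.40 ± 0.42) and Vcan, which encodes a matrix proteoglycan, was higher (3.04 ± 0.93). Among 9 partners of DAP12 and the Fc receptor gamma chain, Clec5a, a lectin that signals through DAP12, was higher in Case than in Ctrl (1.51 ± 0.41, adjusted p = 0.0309, edgeR's quasi-likelihood test). Without Case 3 its log2 fold change was 1.30 ± 0.41 (adjusted p = 0.0574, edgeR's quasi-likelihood test), and Syk, the kinase downstream of DAP12, was lower (-1.09 ± 0.23). The list's median went from 0.71 to -0.05.

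Among 6 genes of macrophage activation tested in Case against Ctrl, Cxcl10 was higher (1.76 ± 0.34, adjusted p = 0.00615, edgeR's quasi-likelihood test). In Dapa against Ctrl 7 genes of this list were tested, and Cxcl10 was higher there too (1.94 ± 0.28). Ccl5 was also higher in Dapa than in Ctrl (0.98 ± 0.35), and Clec10a, a lectin of alternatively activated macrophages and dendritic cells, was lower (-2.36 ± 0.57). Among 8 monocyte-attracting genes, complement C3 was higher in Case than in Ctrl (3.32 ± 0.66) and in Dapa than in Ctrl (2.03 ± 0.31), and Cx3cl1 was slightly lower in Dapa (-0.42 ± 0.09). C3 varied widely among Case mice, at 70.5 ± 87.9 FPKM (SD), with 246 FPKM in Case 1 and 71.3 FPKM in Case 3, against 6.62 ± 2.04 FPKM (SD) in Ctrl. Kidney tubules make Cxcl10 and C3 too, so that these are not markers of macrophages.

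Dendritic cell markers gave 1 call of 5 between Case and Ctrl, Batf3 (1.51 ± 0.37), against 13.0% of all genes, and 3 of 6 between Dapa and Ctrl, against 29.1%, with Batf3 higher (1.45 ± 0.49) and Clec10a and Clec9a lower (-1.68 ± 0.52 for Clec9a). Of 4 T and natural killer cell markers tested between Dapa and Ctrl, Trac (1.63 ± 0.41) and Lck (0.96 ± 0.32) were higher, and of 2 tested between Case and Ctrl none passed. The neutrophil gene tested, S100a9, differed by 2.62 ± 0.99 between Case and Ctrl (adjusted p = 0.0977) and by 1.37 ± 0.79 between Dapa and Ctrl (adjusted p = 0.211, edgeR's quasi-likelihood test). Without Case 3, no neutrophil marker passed the filter between Case and Ctrl. Of 2 B and plasma cell markers Jchain was lower in Case than in Ctrl (-1.57 ± 0.46).

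Markers of other cells changed between Case and Ctrl as follows, in counts of those tested, against 13.0% of all genes called. All 6 erythroid genes were higher, 4 of 10 proximal tubule genes were lower, 4 of 10 distal nephron genes, 2 of 6 podocyte genes, 1 of 8 endothelial genes, 1 of 4 lymphatic endothelial genes and 4 of 9 tubular injury genes were higher, and 0 of 2 adipocyte genes passed. Without Case 3, where 11.8% of all genes were called, 4 of 6 erythroid genes were higher, 3 of 10 proximal tubule genes lower, and 3 of 10 distal nephron, 1 of 6 podocyte, 0 of 8 endothelial, 0 of 4 lymphatic endothelial and 4 of 8 tubular injury genes higher. Between Dapa and Ctrl, where 29.1% of all genes were called, 8 of 10 proximal tubule genes were lower, and 6 of 6 erythroid, 5 of 10 distal nephron, 3 of 6 podocyte, 1 of 8 endothelial, 1 of 4 lymphatic endothelial, 4 of 9 tubular injury and 0 of 2 adipocyte genes were higher.

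The genes whose pattern over the 17 mice was most like that of the markers were found by the correlation of their log2 counts, scaled to library size, with the mean of the 9 markers, each scaled, over 15050 other genes. With group means removed, Pearson's r was 0.938 for Pik3ap1, an adaptor of B cells and macrophages, 0.921 for Pyhin1, 0.917 for Fcgr3, a low-affinity Fc receptor, 0.909 for Cd44 and 0.909 for C1qa. Without that step the nearest were C1qa (0.896), Mpeg1 (0.891), Pik3ap1 (0.889), Cd44 (0.887) and Ms4a6c (0.882). With group means removed and over the 16 mice without Case 3, they were Clec5a (0.890), Pik3ap1 (0.876), Cd52 (0.834), Ntpcr (0.832) and Pyhin1 (0.830). These values describe likeness over points that share libraries and depth. Within the markers, Cd68 was the one whose likeness to the mean fell most without Case 3, from 0.672 to 0.359, while Tyrobp went from 0.896 to 0.763.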

How the data were processed

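RNA-seq of whole kidney from 17 mice was analysed. The authors made the files from stranded, oligo(dT)-selected libraries, aligned with HISAT2 to mm10 and counted with StringTie, per the study's methods and the submitters' processing notes. The deposited counts are whole numbers of reads per gene, not normalized. The deposited FPKM are those counts scaled to a length for each gene and to library size, and were reproduced from the counts within 0.00553% for genes with at least 10 counts. The gene symbols Sirt1, Tgfb1 and Bmp4 were split over 2 lines each and were left out, leaving 22558 genes. In 7 libraries the split lines differed from this scaling by over 1%, and a term for these libraries was tried. Groups were taken from the labels. Depth was 13039535 to 17779635 counts in a mouse, which limits Itgam and Cd163.

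Counts were tested with edgeR 4.0.16 in R 4.3.3 (TMM, filterByExpr, quasi-likelihood test, Benjamini-Hochberg over all genes tested), each comparison on its own groups, and a gene was called at an adjusted p under 0.05. The filter left 14582 genes between Case and Ctrl, 14573 between Dapa and Case, and 14647 between Dapa and Ctrl. Values after ± are SEs unless SD is named. Alternatives were DESeq2 1.42.0, limma 3.58.1 on log2(FPKM + 1) or log2(FPKM + 0.1) and with voom, other filters and scalings, a replicate block and leaving out each mouse. All 10 markers are named. Of the other lists of immune genes, up to 3 genes with the smallest adjusted p are named or, where none passed, the most abundant of several lists. For the interferon-gamma response genes and the lists of other cells mainly counts are given. In the account of Case 3 further genes are named as examples. The 10 markers, the lists and the tests were chosen with earlier results of these data known. Positions are from GENCODE vM21 (GRCm38) and upstream sequences from RefSeq. Labels do not say whether the mice were separate litters, and each mouse is 1 library. No 2 libraries of a group agreed within sampling noise, with a lowest chi-square per gene of 15.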

Additional observations from a re-analysis of the deposited data

Results flagged for a closer look

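In 11 of 36 sets of values tested, each a gene or sum in 1 group of mice, the highest mouse lay further from the next than Dixon's 95% limit allows. Chance gives this in about 1 in 20 sets, and the markers share mice, so that the sets are not independent. For 8 of the 10 markers the mouse was Case 3, with 3.23 FPKM of Adgre1, 10.1 of Csf1r, 0.995 of Itgam, 99.3 of Lyz2, 1.66 of Mrc1, 0.176 of Cd163, 18.9 of Tyrobp and 1.19 of Ptprc. The summed level of the 10 markers in Case 3, 138 FPKM, lay beyond the limit too. Cd68 and Itgax in Case 3 did not.

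The second entry under the symbol Itgam was beyond the limit in other mice, at 0.586 FPKM in Case 1 (44 counts) and 0.765 FPKM in Dapa 8 (65 counts), which are also mice with neutrophil marker sums of 14.5 and 9.08 FPKM. In Case 3, where the neutrophil sum was 20.3 FPKM, the entry used in the report held 117 counts. Whether reads of 1 transcript were divided differently between the entries in different mice was not tested.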

How the results depend on the processing

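Of the fitted changes of single markers over all alternatives, 198 of 210 between Case and Ctrl, 184 of 199 between Dapa and Case and 169 of 183 between Dapa and Ctrl kept their direction and their side of the threshold. Between Case and Ctrl, 1 marker (Itgam) was called higher with DESeq2, and leaving out each mouse gave 0 to 1 called higher (Itgam without Case 6) and 0 to 1 called lower (Ptprc without Case 3). Between Dapa and Ctrl, 1 was called lower with DESeq2 and 1 with voom (Ptprc in each), and 2 with a term for the 7 libraries (Ptprc, adjusted p = 0.0152, and Itgax, adjusted p = 0.0374, by edgeR). Leaving out each mouse there gave 0 to 2 called lower, which were Adgre1 and Ptprc without Dapa 7 and Itgax and Ptprc without Dapa 8. Between Dapa and Case none was called under any alternative. The median over 8 markers ran from -0.39 to 0.14, from -0.61 to 0.07 and from -0.37 to -0.13 over single mice left out. Direction turned for Adgre1 between Case and Ctrl with voom (-0.11). Between Dapa and Case it turned for Csf1r with limma (0.06 and 0.04), with voom (0.14) and without Case 3 and Dapa 8 (0.18, chosen after seeing the data), and for Cd68 with the term for the 7 libraries (-0.03).

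With single mice left out, the ranges that crossed 0 between Case and Ctrl were -0.36 to 0.60 for Adgre1, -0.16 to 0.28 for Cd68, -0.23 to 0.47 for Tyrobp, -0.42 to 0.01 for Csf1r and -0.44 to 0.03 for Mrc1. Between Dapa and Case they were -0.14 to 0.31 for Csf1r, -1.16 to 0.05 for Lyz2, -0.51 to 0.08 for Ptprc and -0.08 to 0.35 for Cd68, while Mrc1 ran from 0.00 to 0.45. Between Dapa and Ctrl they were -0.10 to 0.13 for Mrc1 and -0.23 to 0.04 for Csf1r. The ratio of the marker sum in Case 3 to the other Case mice, 7.75, was 3.95 without Lyz2 and 5.04 in counts scaled to the total of non-mitochondrial genes. The ratios of Case to Ctrl medians relative to Ptprc, 1.81 for Lyz2 and 1.47 for Adgre1, were 1.4 and 0.996 relative to Tyrobp, and 1.84 and 1.01 relative to Laptm5. With single mice left out, chosen after seeing the data, they ran from 1.19 to 2.44 for Lyz2 and from 1.36 to 1.57 for Adgre1, and for Csf1r from 0.9 to 1.05. The causes were not tested.

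A replicate block over the 5 numbers shared by Ctrl and Case called 0 markers, with a median of 0.01, and 699 genes. The block leaves out Case 6, without which and with no block 1615 genes were called. Deviations of same-numbered mice correlated at -0.08 to -0.05, so that they were not alike over all genes. Such a correlation cannot exclude something shared that acts on few genes. Dapa shares no number with the other groups. Itgam had no fit where it failed the filter, and Cd163 had one only without a filter or with DESeq2.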

Other observations

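Case 1 also had high sums in several lists, without high levels of most macrophage markers. Its tubular injury genes summed to 1539 FPKM, against 946 FPKM in Case 3 and 142 to 211 FPKM in Ctrl, its interferon-gamma response genes to 906 FPKM against 1165 FPKM in Case 3, and its neutrophil markers to 14.5 FPKM against 20.3 FPKM. Its Ptprc was 0.302 FPKM, the lowest of the Case mice, and its Adgre1 0.759 FPKM, within the range of Ctrl. Of the markers only Lyz2, at 24.3 FPKM, and Itgam, at 0.146 FPKM, lay above every Ctrl mouse in Case 1.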
